A study of Homo sapiens with 4 samples.

Results

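The nucleolar ribosome biogenesis genes of H1299 cells were described at the level of transcripts, from RNA-seq of cells treated for 48 h with HgCl2 or with its solvent. The 48 genes were chosen by name for their role, of 61193 genes in the table, and comprise RNA polymerase I with its initiation factors, nucleolar structural proteins, the core proteins of small nucleolar ribonucleoproteins (snoRNPs) and the assembly factors of both ribosomal subunits. All 480 transcripts of these genes were taken, of 227368 listed. Of these, 141 had a count in at least 1 column, 339 were at 0 in every column, and 37 transcripts of 24 genes reached a mean of 20 counts over the groups and were compared.

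H1299 is a human cell line in long use, from a non-small-cell lung carcinoma. Treated cells received 5 μM HgCl2 and control cells 0.6% EtOH, both for 48 h, and each group has 2 columns of values, named as replicates 1 and 2. The treatment text of the labels gives 5 μM HgCl2 for all 4 samples, whereas the study's methods give none to the control cells. Poly-A RNA was read, and the deposited values are raw counts per transcript.

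The 2 columns of a group differed by less than independent samples would. The variance of their difference was 0.505 times that of independent counting for EtOH and 0.516 times for HgCl2, where a ratio of 1 means counting noise alone, and 0.583 and 0.459 over the transcripts of these 48 genes. Between the first column of each group the ratio was 31.9. Each group was therefore counted as 1 sample. There is no replicate check of the treatment and no test, intervals are exact 95% Clopper-Pearson intervals that cover counting error only, and every difference given below is between these libraries. With columns this close, whether the columns of both groups overlap is no further support for a difference.

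The EtOH columns summed to 5051958 and 5053120 counts, and those of HgCl2 to 4722772 and 4720978. Transcripts of the mitochondrial genome took 24.8% of the counts in EtOH and 17.9% in HgCl2, and 33106 to 33148 transcripts had a count in EtOH against 25432 to 25531 in HgCl2. The part of these shifts in the results below was not tested. Of the markers of the line, VIM, CD44, EGFR and AXL were counted in all columns. KRT8 stood at 53 and 58 counts in EtOH and 4 and 4 in HgCl2, its keratin partner KRT18 at 23 and 24 against 18 and 31, and HMGA2 at 34704 and 35108 against 94083 and 93809. CDH1, which the line is known to lack, was at 0 in every column. The leukocyte, erythroid and liver markers PTPRC, CD3E, HBB and ALB were at 0, and PECAM1 and COL1A1 had at most 5 and 18 counts. In bulk RNA, fewer cells of a type and less RNA per cell cannot be told apart.

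Ribosomes are made in the nucleolus. RNA polymerase I, recruited to the ribosomal DNA repeat by UBTF, the selectivity factor SL1 and RRN3, transcribes one long precursor of the ribosomal RNAs, on which the small subunit processome and the large subunit factors assemble in order while snoRNPs methylate and pseudouridylate it. Many snoRNAs are cut from introns of genes whose proteins serve the same organelle, so these genes give both a protein and a guide RNA, and proliferating tumour cells are known for large and active nucleoli.

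As far as the values show, the counting of the deposited table keeps mostly reads on bases that a single listed transcript covers, so a count measures the stretches that belong to one transcript and not the level of its gene. Of the 144 transcripts with a run of at least 150 bases of their own, 31 were compared, and of the 336 without such a run only 6 were. The main mRNAs of FBL and TAF1D have at most 3 bases of their own and were at 0 in every column. Counts of different genes are for this reason not compared with each other.

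Over the 37 transcripts the pattern was mixed rather than one-sided. Together the 480 transcripts held 13315 and 13433 counts in EtOH and 12803 and 12591 in HgCl2, which is 0.264% and 0.266% of all counts in EtOH and 0.271% and 0.267% in HgCl2. On the TMM scale the log2 fold changes of HgCl2 against EtOH ran from -2.73 to 3.87 with a median of 0.09, beside a median of 0.01 over all 8751 transcripts compared. At least 2-fold higher in HgCl2 were 7 of the 37 and at least 2-fold lower 4, where 15.2% of all transcripts compared were higher and 15.6% lower by this rule. A counting interval wholly above 0 was found for 14 and wholly below 0 for 14, where the background shares were 33.1% and 33.3%. None of these counts stands far from the background. The split depends on the scaling: on the deposited FPKM values with a pseudocount of 0.1, 12 were at least 2-fold higher and 1 lower, with the median of all transcripts at 0.38, and with library totals 8 were higher and 2 lower. The transcripts of these genes separated by class.

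**Figure D1:**
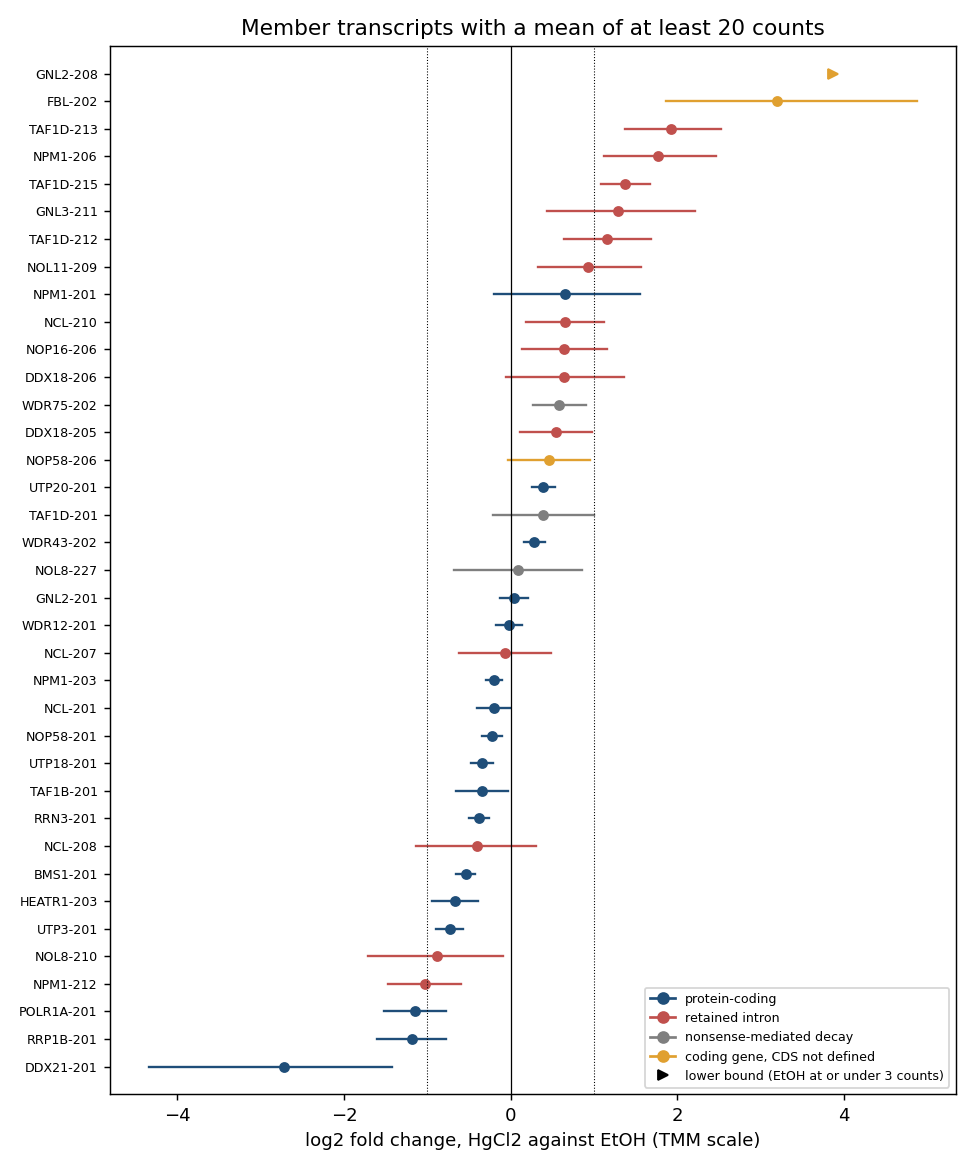
Log2 fold change of HgCl2 against EtOH on the TMM scale (horizontal axis) for the 37 compared transcripts of the nucleolar genes, coloured by transcript class, with lines for 95% counting intervals, dotted lines at 2-fold and a triangle for a lower bound. Protein-coding transcripts lie mostly left of 0, down to -2.73 for DDX21-201, and most retained-intron transcripts right of 0, up to 1.93 for TAF1D-213. On the deposited FPKM scale 7 of the 17 values left of 0 turn positive, 6 of them protein-coding.

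Of the 17 protein-coding transcripts, 12 had an interval below 0, 2 above 0, and 3 were at least 2-fold lower, with a median log2 fold change of -0.34 beside -0.07 over all 4684 protein-coding transcripts compared. Over those 4684, 37.6% had an interval below 0, 29.3% above, and 14.0% were at least 2-fold lower, so the 2-fold count of 3 is near the background. On the deposited FPKM scale 7 of the 17 were below 0. Where the mean reached 200 counts, 8 of 12, or 66.7%, had an interval below 0, and 36.5% of the 2180 such transcripts in the whole table did. Of the 14 retained-intron transcripts, which keep a stretch that the mature mRNA lacks, 9 had an interval above 0 and 2 below, and 5 were at least 2-fold higher, with a median of 0.65 beside 0.41 over all 1521 of that class. Of the retained-intron transcripts of all genes, 44.8% had an interval above 0, 20.2% below, and 30.5% were at least 2-fold higher. The direction of this class is thus shared with other genes. The 14 retained-intron transcripts come from 8 genes, and the 1521 from 1197. The retained-intron median exceeded the protein-coding median by 0.99 on the log2 scale in these genes. In the whole table the gap was 0.48, and in the other genes of the pathway 0.34. With a minimum mean of 10 and of 50 counts the gap was 0.69 and 1.14 in these genes. In the whole table it was then 0.30 and 0.38, and in the other pathway genes 0.41 and 0.30.

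**Figure D2:**
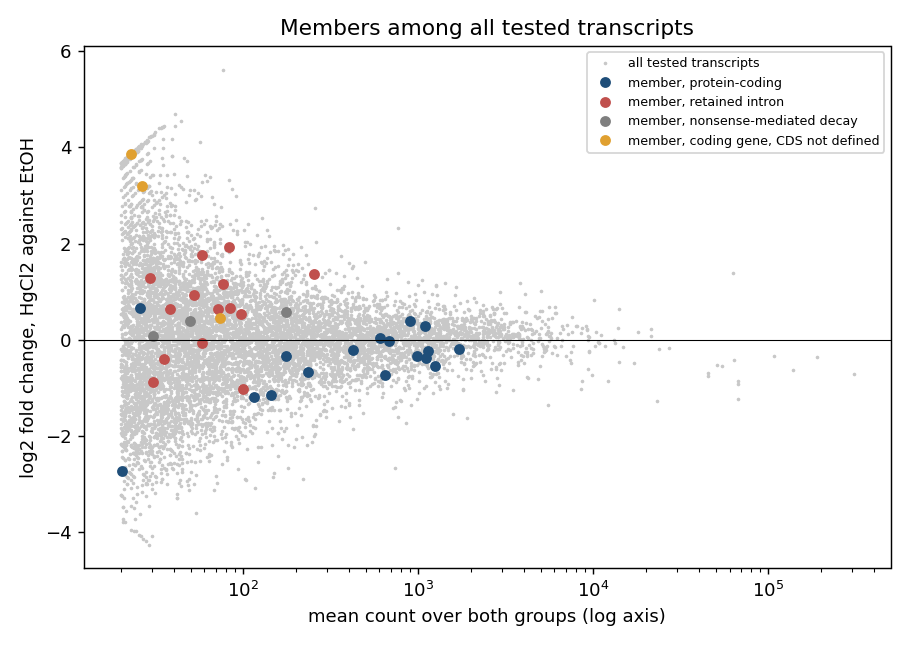
Log2 fold change of HgCl2 against EtOH against the mean count over both groups (log axis) for all 8751 transcripts compared (grey) and the 37 of the nucleolar genes (coloured by class). The spread of the grey points narrows with the count, and above 200 counts 8 of 12 protein-coding points of these genes have intervals below 0.

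RNA polymerase I itself was represented by its largest catalytic subunit, and 3 initiation factors stood beside it. POLR1A-201, the mRNA of that subunit (chr2:86020216-86105886, GRCh38), had 204 and 189 counts in EtOH and 90 and 95 in HgCl2, a log2 fold change of -1.14 (interval -1.52 to -0.78). RRN3-201, for the factor TIF-IA that bridges the polymerase and SL1 (chr16:15060033-15094272), had 1196 and 1269 counts in EtOH and 1004 and 963 in HgCl2, a log2 fold change of -0.38 (-0.50 to -0.26). TAF1B-201, for an SL1 subunit, had 194 and 190 counts in EtOH and 170 and 144 in HgCl2, a change of -0.35 (-0.66 to -0.03) that becomes 0.03 on the deposited FPKM scale. All 3 mRNAs were lower in HgCl2 on the TMM scale, POLR1A by more than 2-fold, and on the deposited FPKM scale POLR1A stood at -0.73 and RRN3 at 0.00. The polymerase subunits POLR1C and POLR1D, shared with RNA polymerase III, and the SL1 subunit TAF1A stayed below a mean of 20 counts on every transcript. POLR1D summed over its transcripts to 28 and 20 counts in EtOH and 13 and 10 in HgCl2, and TAF1A to 16 and 17 against 25 and 22. POLR1B, POLR1E and UBTF were at 0 in every column, which in this counting does not show that they are absent.

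TAF1D, the SL1 subunit whose locus also holds 8 snoRNA genes, went the other way through transcripts of the retained-intron class. The canonical mRNA ends at chr11:93735567 on the minus strand and has no bases of its own, and the transcripts below keep sequence inside it or beyond its end. TAF1D-215 had 145 and 129 counts in EtOH and 373 and 367 in HgCl2, a log2 fold change of 1.38 (1.09 to 1.67). TAF1D-213 had 26 and 41 counts in EtOH and 128 and 137 in HgCl2, a change of 1.93 (1.37 to 2.52), and TAF1D-212, which keeps an intron of the mRNA, had 45 and 48 against 114 and 101, a change of 1.15 (0.64 to 1.68). All 3 were more than 2-fold higher, and their values stayed past 2-fold under every alternative scaling, filter and column choice that kept them. TAF1D-206, which keeps another stretch, had 13 and 15 counts in EtOH and 17 and 20 in HgCl2, and TAF1D-201, of the nonsense-mediated decay class, 44 and 40 against 58 and 56, a change of 0.38 with an interval that includes 0. Whether the TAF1D mRNA itself differed cannot be read from these counts.

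Of the 8 snoRNA genes in the TAF1D locus, SNORD6, a box C/D RNA, was the one with counts. It had 9 and 12 counts in EtOH and 41 and 53 in HgCl2, a log2 fold change of 2.11 (1.12 to 3.23), and the other 7 were at 0. Poly-A RNA was read, and whether these reads come from the snoRNA or from longer RNA of the locus was not tested. The own stretch of TAF1D-213 abuts SNORA1, and that of TAF1D-215 lies 2 bases from SNORA8. Their sequences are shown because higher counts of TAF1D lie on these 2 transcripts. They run 5′ to 3′ on the minus strand of GRCh38, with coordinates and transcript classes from GENCODE 44. The first shows SNORA1 in capitals followed by 150 bases that belong to TAF1D-213 alone (chr11:93731854-93732133). The second shows 150 bases of TAF1D-215 alone followed by SNORA8 in capitals (chr11:93732361-93732651). The third is SNORD6 with its C and D boxes in capitals (chr11:93731502-93731574).
TAF1D-213: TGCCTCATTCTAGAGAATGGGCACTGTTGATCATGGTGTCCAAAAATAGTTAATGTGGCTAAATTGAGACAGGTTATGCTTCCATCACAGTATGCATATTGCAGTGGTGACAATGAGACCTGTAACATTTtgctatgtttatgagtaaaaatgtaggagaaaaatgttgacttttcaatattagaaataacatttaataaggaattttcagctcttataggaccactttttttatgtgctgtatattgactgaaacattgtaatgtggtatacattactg
TAF1D-215: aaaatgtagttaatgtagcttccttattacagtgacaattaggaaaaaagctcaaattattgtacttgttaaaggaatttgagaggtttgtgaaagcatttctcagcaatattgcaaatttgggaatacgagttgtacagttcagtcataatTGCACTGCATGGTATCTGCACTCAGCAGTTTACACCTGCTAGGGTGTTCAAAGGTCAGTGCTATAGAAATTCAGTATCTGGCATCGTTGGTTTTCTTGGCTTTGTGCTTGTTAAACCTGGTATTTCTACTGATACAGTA
SNORD6: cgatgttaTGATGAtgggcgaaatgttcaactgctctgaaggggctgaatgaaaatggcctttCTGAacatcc

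**Figure D3:**
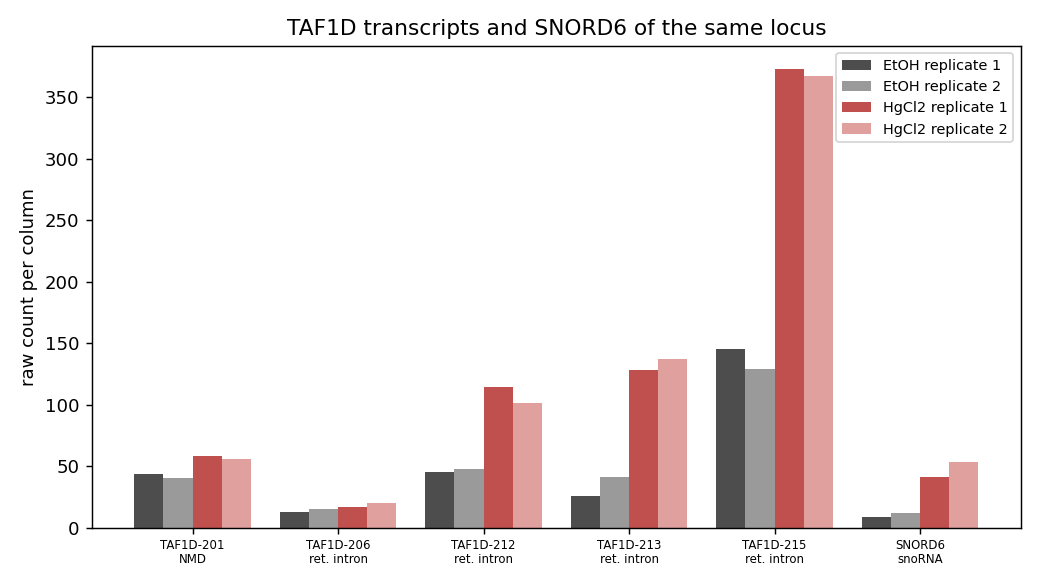
Raw counts per column (vertical axis, from 0) of the TAF1D transcripts with counts and of the snoRNA SNORD6, which lies beyond the end of the canonical mRNA, with EtOH replicates in greys and HgCl2 replicates in reds. TAF1D-212, TAF1D-213, TAF1D-215 and SNORD6 are higher in both HgCl2 columns than in both EtOH columns, while TAF1D-201 and TAF1D-206 differ by less than 20 counts.

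Other snoRNA host genes among the 48 gave less clear values. SNORA75 in an intron of NCL had 12 and 18 counts in EtOH and 30 and 26 in HgCl2, SNORD11 in NOP58 11 and 8 against 22 and 27, and SNORD19C in GNL3 18 and 19 against 27 and 29. Summed over each host, the intervals of GNL3 (-0.48 to 1.25), NCL (-0.27 to 1.54) and NOP58 (-0.33 to 1.68) all include 0. SNORA75, SNORD11 and SNORD19C had higher counts in HgCl2, while SNORD19, SNORD20, SNORD70B and SNORD11B, at few counts each, had lower ones. The snoRNAs of WDR43 summed to 3 and 4 counts in EtOH and 0 and 0 in HgCl2. None of the sums of these hosts passed the interval rule. Here too, whether the reads come from the snoRNA or from longer host RNA was not tested.

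Of the 5 protein-coding transcripts of the nucleolar proteins 4 were below 0 on the TMM scale and 1 above, beside retained introns that went both ways. NPM1, nucleophosmin of the granular component, was counted mainly on NPM1-203, a coding transcript that ends in an exon of its own inside an intron of the canonical mRNA (own stretch chr5:171406397-171407125). It had 1787 and 1798 counts in EtOH and 1640 and 1606 in HgCl2, a log2 fold change of -0.20 (-0.30 to -0.10) that becomes 0.18 on the deposited FPKM scale. The canonical NPM1-201 has 16 bases of its own, and had 23 and 16 counts in EtOH and 34 and 30 in HgCl2, a change of 0.66 (-0.20 to 1.55). The retained-intron transcripts of NPM1 went apart. NPM1-206 had 25 and 26 counts in EtOH and 91 and 90 in HgCl2, a change of 1.77 (1.12 to 2.47), and NPM1-212 had 135 and 129 against 67 and 68, a change of -1.02 (-1.47 to -0.59), or -0.64 on the deposited FPKM scale. The retained-intron share of NPM1 counts was accordingly close in both groups, 8.38% (7.20 to 9.69) in EtOH and 8.89% (7.62 to 10.3) in HgCl2.

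NCL, nucleolin, an abundant RNA-binding protein of the nucleolus, also had transcripts on both sides of 0, at smaller size. NCL-201, its mRNA, had 438 and 450 counts in EtOH and 401 and 400 in HgCl2, a log2 fold change of -0.20 (-0.40 to -0.01), or 0.17 on the deposited FPKM scale. NCL-210, which keeps an intron, had 62 and 66 counts in EtOH and 110 and 99 in HgCl2, a change of 0.65 (0.19 to 1.12), while NCL-207 and NCL-208 gave -0.07 and -0.41 with intervals that include 0. Of NCL counts, 26.6% (23.1 to 30.3) lay on retained-intron transcripts in EtOH and 32.5% (28.8 to 36.5) in HgCl2, with intervals that overlap.

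RRP1B-201, for a nucleolar protein of precursor RNA processing (chr21:43659560-43696079), was lower by more than 2-fold, with 158 and 158 counts in EtOH against 76 and 69, a log2 fold change of -1.18 (-1.60 to -0.77), or -0.78 on the deposited FPKM scale. DDX21-201, for a helicase that couples RNA polymerase I to processing, had 36 and 34 counts in EtOH and 8 and 3 in HgCl2, a change of -2.73 (-4.34 to -1.42). It rests on few counts, passed the filter through EtOH alone and was named after its values were seen. Opposite to both, GNL3-211, a retained-intron transcript of nucleostemin also named after its values were seen, had 22 and 11 counts in EtOH and 40 and 44 in HgCl2, a change of 1.29 (0.44 to 2.21). GNL3-211 passed the filter through HgCl2 alone. Its stretch abuts a snoRNA gene, as that of TAF1D-213 does, and is printed for that reason. It is read from the plus strand with SNORD19B in capitals and its own 117 bases after it (chr3:52690744-52690944). NOLC1, TCOF1 and MYBBP1A had at most 1 count in any column.
GNL3-211: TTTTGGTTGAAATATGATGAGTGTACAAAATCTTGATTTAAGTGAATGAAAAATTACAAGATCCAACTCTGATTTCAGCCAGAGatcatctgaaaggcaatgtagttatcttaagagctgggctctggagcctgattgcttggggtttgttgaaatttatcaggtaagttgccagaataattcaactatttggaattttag

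Of the snoRNP core proteins, NOP58 of the box C/D particle was counted on its mRNA. NOP58-201 had 1181 and 1215 counts in EtOH and 1089 and 1040 in HgCl2, a log2 fold change of -0.23 (-0.35 to -0.11), or 0.15 on the deposited FPKM scale. NOP58-206, a transcript with no defined coding sequence, had 65 and 56 counts in EtOH and 90 and 83 in HgCl2, a change of 0.46 (-0.03 to 0.96). FBL, fibrillarin, the methyltransferase of the same particle, was counted mainly on FBL-202, a transcript without a defined coding sequence that starts inside an intron of the canonical mRNA. It had 5 and 5 counts in EtOH and 51 and 44 in HgCl2, a change of 3.19 (1.87 to 4.88). FBL-202 passed the filter through HgCl2 alone and was named after its values were seen. The stretch that belongs to FBL-202 alone is its first exon, 133 bases on the minus strand (chr19:39837959-39838091), shown because the counting assigns reads mainly to such stretches, with no capitals.
FBL-202: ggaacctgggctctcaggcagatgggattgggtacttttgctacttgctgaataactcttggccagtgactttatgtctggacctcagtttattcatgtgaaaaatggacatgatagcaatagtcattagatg

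The box H/ACA proteins DKC1, the pseudouridine synthase dyskerin, and GAR1 had no transcript that reached a mean of 20 counts over the groups. DKC1 summed to 18 and 24 counts in EtOH and 9 and 9 in HgCl2, and GAR1 to 27 and 28 against 13 and 10. Both sums were lower in HgCl2, but they lay almost wholly on retained-intron transcripts. These held 100% of the DKC1 counts in both groups, and 96.4% and 100% of those of GAR1 in EtOH and HgCl2. The mRNAs DKC1-201 and GAR1-201 have no bases of their own and were at 0 in every column, so their level cannot be read from these sums. NOP56, the other core protein of the box C/D particle, summed to 14 and 13 counts in EtOH and 25 and 23 in HgCl2. NHP2 had at most 1 count per column and NOP10 was at 0.

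The small subunit processome was the best measured group, with 6 mRNAs over 200 counts, of which 4 were lower in HgCl2 and 2 higher. BMS1-201, for the GTPase of the processome (chr10:42782795-42834937), had 1410 and 1500 counts in EtOH and 1053 and 1030 in HgCl2, a log2 fold change of -0.54 (-0.65 to -0.42). UTP3-201, the single transcript of a processome component, had 779 and 804 counts in EtOH and 475 and 516 in HgCl2, a change of -0.73 (-0.90 to -0.57). HEATR1-203, for a subunit of the t-UTP complex that links the processome to ribosomal DNA transcription, had 284 and 280 counts against 179 and 191, a change of -0.66 (-0.94 to -0.39). All 3 intervals lie below 0. UTP18-201, of the UTPB complex, had 1056 and 1095 counts in EtOH and 891 and 871 in HgCl2, a change of -0.34 (-0.47 to -0.21) that becomes 0.03 on the deposited FPKM scale.

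UTP20-201, for the large scaffold of the processome (chr12:101280105-101386618), went against them, with 776 and 749 counts in EtOH and 1063 and 1021 in HgCl2, a log2 fold change of 0.39 (0.26 to 0.53). WDR43-202, of the t-UTP complex, had 1000 and 938 counts in EtOH and 1232 and 1224 in HgCl2, a change of 0.29 (0.16 to 0.41). The t-UTP complex thus held both directions, since HEATR1 was lower. Its other counted members had no compared mRNA. WDR75-202, a transcript annotated for nonsense-mediated decay, had 148 and 125 counts in EtOH and 222 and 204 in HgCl2, a change of 0.59 (0.27 to 0.91), while the retained-intron share of WDR75 counts went from 15.5% (10.3 to 22.0) to 4.05% (1.87 to 7.56). NOL11-209, a retained-intron transcript, had 38 and 32 counts against 72 and 67, a change of 0.93 (0.33 to 1.56). UTP4, UTP14A, UTP15, NOP14, DDX10 and RRP12 had no transcript that was compared, NOL6 was at 0, and UTP14A summed to 16 and 13 counts in EtOH and 5 and 4 in HgCl2.

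**Figure D4:**
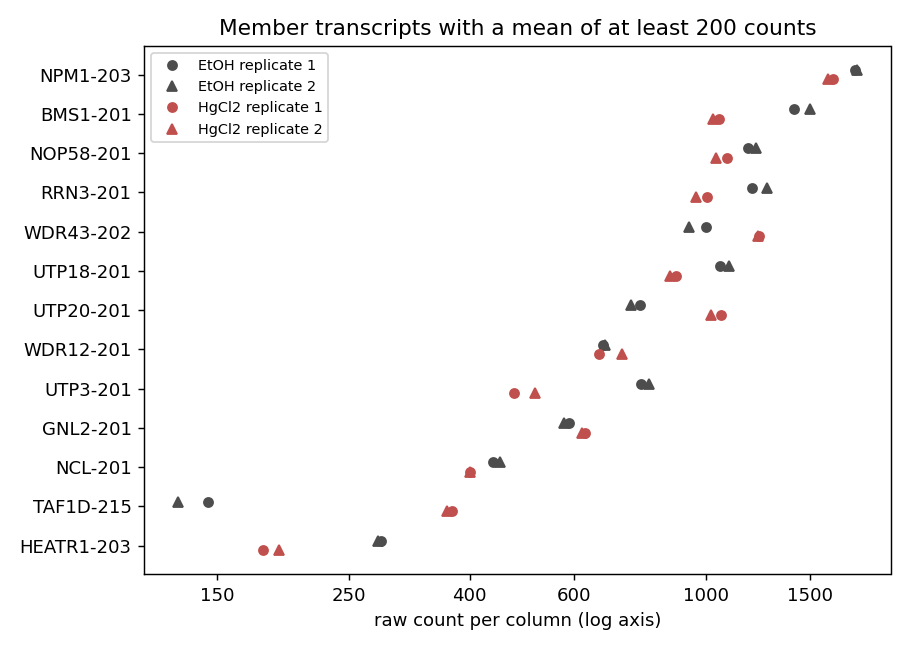
Raw counts per column (log axis) of the 13 transcripts whose mean reached 200 counts, grey for EtOH and red for HgCl2, circles and triangles for replicates 1 and 2. The columns of a group lie close together, and HgCl2 lies above EtOH for UTP20-201, WDR43-202, TAF1D-215 and GNL2-201. Raw counts are plotted without scaling, and the TMM interval of GNL2-201 includes 0.

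Both compared mRNAs of the large subunit factors stood near 0 on the TMM scale. WDR12-201, of the PeBoW complex, had 671 and 677 counts in EtOH and 662 and 724 in HgCl2, a log2 fold change of -0.02 (-0.17 to 0.14), and GNL2-201, for a GTPase of subunit export, 588 and 577 against 627 and 620, a change of 0.04 (-0.12 to 0.21). Both intervals include 0 and reach no further than 0.21 on the log2 scale, while on the deposited FPKM scale WDR12-201 stood at 0.36 and GNL2-201 at 0.42. Other compared transcripts of the large subunit factors went both ways. GNL2-208, without a defined coding sequence and named after its values were seen, had 1 and 0 counts in EtOH and 41 and 50 in HgCl2, which against a floor of 3 counts for the group mean is at least 14.6-fold higher. GNL2-208 passed the filter through HgCl2 alone. NOP16-206, a retained-intron transcript of an assembly factor, had 49 and 60 counts in EtOH and 90 and 87 in HgCl2, a change of 0.64 (0.14 to 1.16), and DDX18-205, that of a helicase, 77 and 78 against 120 and 115, a change of 0.54 (0.12 to 0.98). NOL8-210, a retained-intron transcript of a gene for a nucleolar RNA-binding protein, was lower and was named after its values were seen. It had 39 and 39 counts in EtOH against 26 and 18 in HgCl2, a change of -0.88 (-1.71 to -0.09). BOP1 was at 0, and NOP2 and PES1, an RNA methyltransferase and a PeBoW protein, had at most 5 counts in any column.

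A share of counts within the same genes does not depend on the scaling between groups. Over the 48 genes, retained-intron transcripts held 7.95% and 7.90% of the counts in EtOH and 11.7% and 11.6% in HgCl2. The group values were 7.92% (7.47 to 8.39) and 11.6% (11.1 to 12.2), and their intervals do not overlap. Most of this lay in TAF1D. Without it the shares were 6.30% (5.89 to 6.73) and 7.06% (6.61 to 7.53), and the intervals overlap. Over all transcripts outside the mitochondrial genome the share was 4.36% in EtOH and 4.97% in HgCl2, and in the other genes of the pathway it was lower in HgCl2, with an interval of 4.30 to 4.70% in EtOH and of 3.68 to 4.05% in HgCl2.

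**Figure D5:**
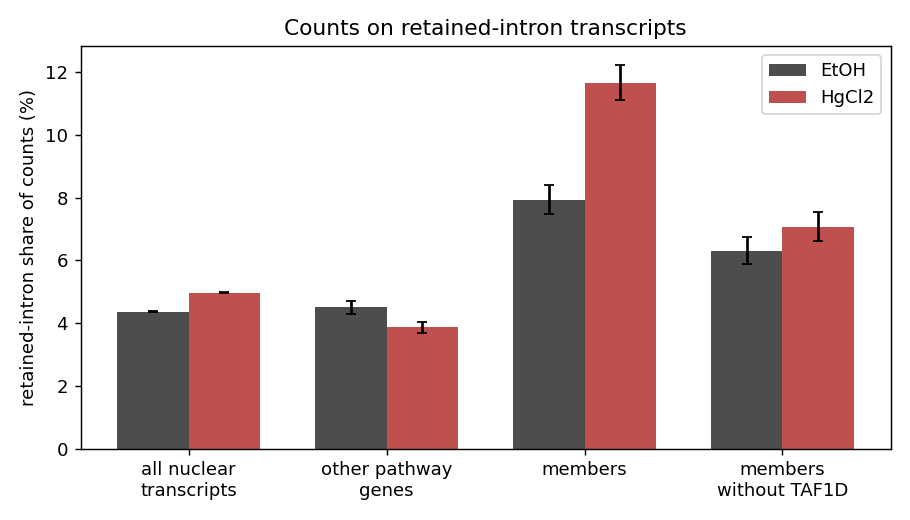
Share of counts on retained-intron transcripts (vertical axis, percent) in EtOH (grey) and HgCl2 (red), with 95% Clopper-Pearson intervals, for all transcripts outside the mitochondrial genome, the other pathway genes, the 48 genes and the 48 genes without TAF1D. The share of the 48 genes is 7.92% in EtOH and 11.6% in HgCl2, and without TAF1D the intervals overlap.

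The other genes of nucleolar ribosome synthesis, a list of 127, had 83 transcripts of 73 genes that were compared. Of these, 3 (3.61%) were at least 2-fold higher and 14 (16.9%) at least 2-fold lower in HgCl2, and the median log2 fold change was -0.11. An interval above 0 was found for 19 (22.9%) and below 0 for 36 (43.4%). Over all transcripts compared the shares were, in this order, 15.2%, 15.6%, 33.1% and 33.3%. With library totals 26 of the 83 had an interval above 0 and 25 below, with a median of 0.04. On the deposited FPKM scale with a pseudocount of 0.1, 8 were 2-fold higher and 6 lower. Protein-coding transcripts gave 14 above and 30 below of 64, against 2 and 12 of 17 in the 48 genes. Past 2-fold, MRTO4-201, for a large subunit factor, stood at -2.25 (-3.09 to -1.49), UTP11-201, of the processome, at -1.75 (-2.43 to -1.12) and MPHOSPH10-205, also of the processome, at 1.33 (0.70 to 2.0). MRTO4-201, UTP11-201 and MPHOSPH10-205 were named after their values were seen. MRTO4-201 had 79 and 81 counts in EtOH and 17 and 18 in HgCl2, and passed the filter through EtOH alone. On the TMM scale both lists held more lower than higher protein-coding transcripts by the interval rule. Over all protein-coding transcripts 37.6% were lower and 29.3% higher, a lean of the same direction and smaller size. Where the mean reached 200 counts these shares were 36.5% and 35.4%, beside 66.7% and 16.7% in the 48 genes and 45.7% and 31.4% in the pathway list.

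Pseudogene copies limit how far some of these counts can be assigned. NPM1 has 49 copies in the annotation, which had 3085 and 3145 counts in EtOH and 2522 and 2458 in HgCl2, more than the gene itself. Copies of BMS1 had 383 and 398 counts against 289 and 318, and copies of RRN3 42 and 43 against 7 and 8. In raw counts the copies of all 3 were lower in HgCl2, and so were NPM1-203, BMS1-201 and RRN3-201, and reads of gene and copy may have been split between them.

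The promoters of these genes carried the E-box CACGTG, the letters that MYC and related factors are known to bind, in a larger share than promoters at large. Sequences were taken from RefSeq on GRCh38.p14 as 250 bases before to 50 after each listed start, and CACGTG (a palindrome), CCGGAAGT (an ETS-like sequence) and GCATGCGC (an NRF1-like sequence) were searched on both strands. Entries were found for 40 of the 48 genes. CACGTG was in 17 of the 40 genes, or 42.5%, beside 10.9% of all protein-coding genes. CCGGAAGT was in 8 of the genes, or 20%, beside 6.97%, and GCATGCGC in 4, or 10%, beside 4.89%. Counted by entry, CACGTG was in 17 of the 49 entries of these genes, or 34.7%, beside 7.25% of all 35097 entries. By entry CCGGAAGT was in 18.4% beside 4.14%, and GCATGCGC in 8.16% beside 3.05%. A match is a description of letters and not a bound site.

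Genes with the E-box had mRNAs on both sides of 0. Of the 15 compared protein-coding transcripts with a promoter entry, 5 came from genes with CACGTG and had log2 fold changes of -2.73 for DDX21-201, -0.34 for UTP18-201, 0.04 for GNL2-201, 0.29 for WDR43-202 and 0.39 for UTP20-201. Of the 10 without it, 9 were below 0, with a median of -0.36 against 0.04 for the 5. This too depends on the scaling: on the deposited FPKM scale 5 of the 10 and 1 of the 5 were below 0, with medians of 0.01 and 0.42. The sequences before the starts of UTP20 and UTP18 are shown because these processome genes have named transcripts and carry the letters before the start. They went opposite ways on the TMM scale, and on the deposited FPKM scale stood at 0.77 and 0.03. Both are on the plus strand of GRCh38.p14 and lie before the start, with the E-box in capitals, which begins 10 bases before the start of UTP20 (chr12:101280045-101280104) and 89 before that of UTP18 (chr17:51260407-51260512). MYC itself had 23 and 22 counts in EtOH and 2 and 2 in HgCl2. This is below the mean of 20 counts set for a comparison, and the HgCl2 counts are under the floor of 3. Whether MYC has a part in the differences of these genes was not tested.
UTP20: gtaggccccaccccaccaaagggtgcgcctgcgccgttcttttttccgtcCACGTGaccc
UTP18: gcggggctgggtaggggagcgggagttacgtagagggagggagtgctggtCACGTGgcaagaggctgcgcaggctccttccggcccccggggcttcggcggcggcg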

How the data were processed

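Poly-A RNA was measured in 4 samples of H1299 cells, given 5 μM HgCl2 or 0.6% EtOH for 48 h. For the deposited raw counts the authors used Trim Galore 0.6.5 for trimming, STAR 2.5.4b for alignment to GRCh38 and Rsubread 2.0.1 for counting per Ensembl 98 transcript, with counting options and strand setting not given in the sources used here, and did not normalize them. Their deposited FPKM values come from DESeq2 1.26.0 and served as an alternative scale alone, with pseudocounts of 0.1 and 1. By the values, reads shared by transcripts were mostly left out, which lowers or removes genes with overlapping transcripts.

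Names, classes and coordinates were taken from GENCODE 44, which held 223558 of 227368 identifiers. Transcripts with a mean of the group means of at least 20 counts were compared by the log2 ratio of mean counts scaled with TMM (edgeR 4.0.16, R 4.3.3). A group at or under 3 counts was set to 3 and the value given as a bound. Since the columns of a group differed by less than counting noise, the planned edgeR test was replaced by exact Clopper-Pearson counting intervals (scipy 1.17.1). Steps were checked on simulated data.

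Named transcripts are the one with the most counts of each gene where its mean reached 200 counts, then up to 12 higher and 12 lower with a mean of at least 50 counts and an interval beyond 0. Genes, lists and this rule were chosen with earlier results of these data known. One marker of the list is not reported here. Alternatives changed scaling (DESeq2 1.42.0, library totals, FPKM), filter, columns, replicate block and feature.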

Additional observations from a re-analysis of the deposited data

How the results depend on the processing

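The 2-fold and interval counts of the 48 genes stayed within 1.5 times their values, with the exceptions given here, under DESeq2 size factors, library totals, other filters, fits with the columns as labelled, summing per gene and leaving out columns. Leaving out each column in turn gave 6 to 8 transcripts of the 48 genes at least 2-fold higher, 3 to 5 lower, 14 to 16 with an interval above 0, 12 to 14 below and a median of 0.05 to 0.26, and for the other pathway genes 3 to 4, 12 to 14, 19 to 20, 32 to 37 and -0.14 to -0.11. The edgeR fit with the replicate block gave 7 higher and 4 lower and a median of 0.09, and so did the fit without it. The replicate numbers are numbers alone, and with 2 near-identical columns a group no pairing can be read from them.

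With library totals 2 of the 48 genes' transcripts were lower by 2-fold and 9 had an interval below 0, and 5 of the other pathway transcripts were higher. A mean of at least 10 counts gave 9 lower, and 9 higher for the pathway. At 50 counts 4 were higher, with 1 higher and 9 lower for the pathway. At 200 counts 1 was higher, 0 lower, 3 above and 8 below, with 0, 1, 12 and 17 for the pathway. At least 10 counts in every column left 2 lower. The study's filter of FPKM above 1 gave 12 higher and 12 lower, with 13 higher, 28 lower and 34 above for the pathway. Protein-coding transcripts alone gave 0 higher, 2 above and a median of -0.34, with 1 higher for the pathway. Counts summed per gene gave 2 higher and 8 above, with 0 higher for the pathway. Without TAF1D, an alternative chosen after seeing the data, 4 were higher.

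On the deposited FPKM scale the median of all transcripts moved to 0.38 (pseudocount 0.1) and 0.34 (pseudocount 1), and with library totals to 0.17, so small changes are relative to these shifts. With a pseudocount of 0.1 there were 12 higher and 1 lower, and for the pathway 8, 6 and a median of 0.27. With a pseudocount of 1 there were 0 lower, and for the pathway 7, 4 and 0.26. With the lower pseudocount 7 of the 17 values below 0 became positive, BMS1-201 stood at -0.16, HEATR1-203 at -0.28 and UTP3-201 at -0.35, WDR12-201 turned to 0.36 and NCL-207 to 0.30. With both, NPM1-203 turned to 0.18, NCL-201 to 0.17, NOP58-201 to 0.15, TAF1B-201 to 0.03 and UTP18-201 to 0.03, and with the FPKM filter NPM1-203 to 0.00. The cause was not tested. Depth limits the transcripts under 50 counts most, 10 of the 37.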
